A study of Mus musculus with 10 samples.

Results

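The 1394 regions described here are H3K9me3 summits of Arid1a knockout hepatocytes that lay on an autosome, reached a strength of at least 5, had no H3K9me3 summit of wildtype cells within 1 kb and had no annotated transcript start within 2 kb. A summit is the single base at which a ChIP-seq peak was highest, and strength is its −log10 q-value within its own library. The knockout list held 134976 H3K9me3 summits, of which 6242 were autosomal and strong and 5714 were also distal, so that the KO-only summits made up 24.4% of the strong distal ones (exact 95% binomial interval 23.3 to 25.5%). The other 4320 strong distal KO summits, which had a WT summit within 1 kb, are called shared. The same rule with the genotypes exchanged gave 1301 WT-only summits. Because the rule itself used both H3K9me3 lists, strength and the distance to a WT summit are given below as description.

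AB17 cells are primary hepatocytes of an Arid1a fl/fl mouse on a C57BL/6 background, immortalized with SV40 large T antigen and then transduced with an H-Ras V12D virus. Both oncogenes and the floxed line were thus common to every cell compared. Infection with Ad-GFP left Arid1a in place and gave the WT cells, while Ad-Cre, an adenovirus expressing Cre recombinase, gave the Arid1a-/- KO cells. H3K9me3 and H3K27me3 were profiled in both genotypes, and Arid1a, Brg1, Ctcf and Rad21 in WT cells, with 1 library per group and 1 cell line. No difference between genotypes has a replicate check, and genotype, virus and library cannot be told apart. Intervals below cover counting error only, and neighbouring summits are not independent. Read depth is unknown from the lists, which held 134976 H3K9me3 summits in KO and 143835 in WT cells. The lists carry no expression values. A limited check of the cell type did not single out hepatocytes. Within 2 kb of their start, 3 of 13 hepatocyte, 1 of 4 endothelial, 1 of 4 immune and 4 of 4 stellate or fibroblast marker genes had a Brg1 summit (41.4% of all autosomal protein-coding genes), and 6, 2, 1 and 1 of them had a WT H3K27me3 summit (24.1%).

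H3K9me3 is the histone mark of constitutive heterochromatin. Methyltransferases such as Suv39h1 and Setdb1 deposit it, heterochromatin protein 1 reads it, and it is best known for keeping transposable elements and satellite DNA silent. In somatic cells it also covers arrays of zinc finger genes. Arid1a and the ATPase Brg1 are subunits of the SWI/SNF remodelling complex, Ctcf is the zinc finger protein that anchors chromatin loops, and Rad21 is a subunit of cohesin.

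Part of the KO-only summits lay in recurrent sequences, shown here as windows of 300 bases around the summit on the plus strand of GRCm38. Capitals mark the stretch of 31 bases with the most exact copies in the genome on either strand. Windows of all 3 classes were compared with each other, and 11 of the 12 largest families of similar windows proved to be pieces of a single repeated element, called A here, while the remaining family belonged to another, called B. Of the KO-only summits 458 (32.9%) matched A or B and 936 (67.1%) neither, and 694 windows (49.8%) resembled another window of the class. A match to A or B was found at 38.2% of shared and 14.5% of WT-only summits. In these classes, which differ in size, 67.6% and 25.7% of the windows resembled another of their class. The first 2 windows represent A near its end and within its body, and the other represents B.
Element A, chr16:4750186-4750485, intron of Hmox2: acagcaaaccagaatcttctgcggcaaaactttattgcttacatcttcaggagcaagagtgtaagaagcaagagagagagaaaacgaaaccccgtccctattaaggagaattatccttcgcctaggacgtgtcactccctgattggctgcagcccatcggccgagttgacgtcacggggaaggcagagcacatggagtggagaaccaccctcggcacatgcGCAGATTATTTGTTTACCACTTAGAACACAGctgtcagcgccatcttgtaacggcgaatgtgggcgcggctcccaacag
Element A, chr10:104557482-104557781, intergenic: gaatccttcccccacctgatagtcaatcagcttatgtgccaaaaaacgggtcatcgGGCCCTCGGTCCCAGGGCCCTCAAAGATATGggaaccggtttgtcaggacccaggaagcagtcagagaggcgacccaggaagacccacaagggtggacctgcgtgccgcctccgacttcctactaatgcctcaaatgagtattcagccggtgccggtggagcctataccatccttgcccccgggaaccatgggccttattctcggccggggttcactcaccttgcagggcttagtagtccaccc
Element B, chr11:16327833-16328132, intron of Vstm2a: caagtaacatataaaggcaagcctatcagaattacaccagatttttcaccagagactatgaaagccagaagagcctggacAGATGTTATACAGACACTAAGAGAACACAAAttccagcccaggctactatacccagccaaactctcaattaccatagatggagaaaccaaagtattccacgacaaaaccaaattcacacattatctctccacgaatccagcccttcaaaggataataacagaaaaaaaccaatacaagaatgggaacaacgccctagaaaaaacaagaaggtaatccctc
The capitals had 4936 copies in the first window, 1247 in the second and 12679 in the window of element B. KO strength at these summits was 10.6, 5.30 and 5.30, and the nearest WT H3K9me3 summit lay 1362 bp, 1412 bp and 66452 bp away, with strengths of 7.10, 3.31 and 1.47. Both distances for A were shorter than the copy of the element on chromosome 16 (7161 bp). Whether those WT summits lay in the same copy of A was not tested. The window of B had no WT summit within 50 kb.

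Another pair of windows shows KO-only summits outside these elements. The first is the second strongest KO-only summit. The other was unmasked, had a median of 1 genome copy and lay over 10 kb from any WT summit. A stronger summit that also met these conditions is described below.
Second strongest, chr15:75086639-75086938, intergenic: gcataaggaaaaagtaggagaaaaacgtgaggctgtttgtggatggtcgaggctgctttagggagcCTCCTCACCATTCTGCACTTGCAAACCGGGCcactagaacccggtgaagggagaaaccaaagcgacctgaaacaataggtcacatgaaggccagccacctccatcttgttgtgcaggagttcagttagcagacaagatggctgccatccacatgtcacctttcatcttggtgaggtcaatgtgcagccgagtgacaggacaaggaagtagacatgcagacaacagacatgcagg
Median of 1 copy, chr8:110511049-110511348, intron of Hydin: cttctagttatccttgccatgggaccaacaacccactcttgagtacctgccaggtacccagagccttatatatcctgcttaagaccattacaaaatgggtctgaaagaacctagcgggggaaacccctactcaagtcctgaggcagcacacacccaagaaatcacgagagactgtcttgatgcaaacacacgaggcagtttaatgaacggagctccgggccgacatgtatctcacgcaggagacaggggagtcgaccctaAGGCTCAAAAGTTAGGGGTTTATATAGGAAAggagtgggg
The capitals had 5 copies in the intergenic window and 61 in the one in Hydin, where 78.5% of the stretches were single copy. The intergenic one had a strength of 26.8 with the nearest WT summit of strength 3.52 at 7578 bp. The one in Hydin had a strength of 9.65 with the nearest WT summit of strength 2.62 at 19968 bp. At the intergenic summit the WT Ctcf list had a summit 3 bp away with a strength of 49.1 and the Rad21 list one 9 bp away with a strength of 30.2, so that a site listed for H3K9me3 only in KO cells was a strong Ctcf and cohesin site in WT cells.

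To describe the repeats, soft-masking of the genome sequence served as annotation, and it covers 33.5% of the autosomes. The summit base was masked in 960 of the 1394 KO-only summits, or 68.9% (Wilson 95% interval 66.4 to 71.2%). Of all distal autosomal KO summits of any strength, 52.4% were masked. The share was 73.3% among shared summits and 47.6% among WT-only summits. KO-only summits were thus masked less often than shared ones, with a difference of −4.40 percentage points (Newcombe 95% interval −7.20 to −1.67), with the lower share on 16 of 19 autosomes. With a WT window of 5 kb this difference was −1.08 points and its interval included 0 (−5.74 to 3.22). They were masked more often than WT-only ones by 21.3 points (17.6 to 24.9), with the higher share on 16 autosomes. The WT list as a whole was less repetitive than the KO list. Of all its distal summits 43.0% were masked, and the median GC content of the 300-base windows was 46.7% against 44.0% in the KO list, so the WT-only contrast moves with a difference between whole libraries, whose part in it was not tested.

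Repetition was next measured without an annotation, by counting how often each stretch of 31 bases of a window occurs in the genome and taking the median over the window. In 500 of the KO-only summits, or 35.9%, the median stretch occurred 1 time. It had over 1 to 10 copies in 203 (14.6%), over 10 to 100 in 185 (13.3%), over 100 to 1000 in 217 (15.6%) and over 1000 in 289 (20.7%). Copies were counted for the 3 strong classes and not for the whole KO list. Shared summits were most often in the range of over 100 to 1000 copies, which held 30.2% of them and 15.6% of the KO-only summits, a difference of −14.7 points (−16.9 to −12.3) that had the same direction on all 19 autosomes. Above 1000 copies the order turned, with 12.8% of shared summits, 7.88 points fewer than KO-only (5.59 to 10.3, the same direction on 17 autosomes). Of the WT-only summits 67.1% were single copy. The copy number says how hard a read is to place. Reads from identical copies cannot be assigned to one of them, and the part of read placement in these differences was not tested.

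**Figure D1:**
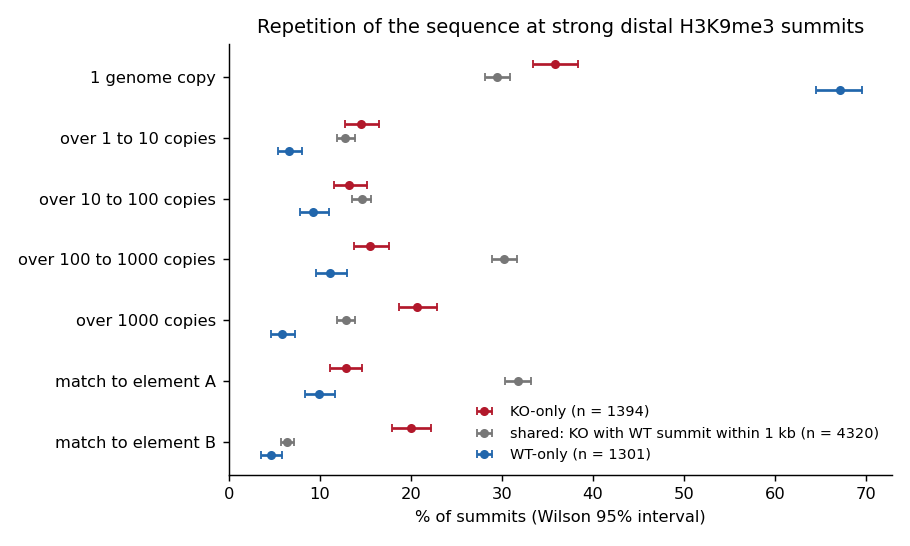
Share of summits (x axis, percent, with Wilson 95% intervals) by the median genome copy number of the 31-base stretches in the window and by match to elements A and B (y axis), for KO-only, shared and WT-only strong distal H3K9me3 summits. KO-only summits stand below the shared ones for element A (12.8% against 31.8%) and above both other classes for element B (20.01% against 6.41% and 4.61%).

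The reference copy of element A is a masked block of 7161 bp (chr16:4743329-4750489), and sequence matching it covered 0.522% of the autosomes. Bases 83 to 418 of the block recur at bases 6820 to 7156 in the same orientation with 99.7% identity over 337 bp, so the element carries a direct repeat at its ends. The reference copy of element B is a masked block of 6277 bp (chr11:16326438-16332714) without such repeats, and matching sequence covered 8.05% of the autosomes. The window of B shown above had 3 CpG dinucleotides and a GC content of 40%, and the windows of A had 16 and 13 and a GC content of 51.7% and 58.3%. No repeat names were assigned, because the annotation used here holds none.

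Element A was found at 179 KO-only summits, 12.8% (11.2 to 14.7%), against 31.8% of shared and 9.92% of WT-only summits. The KO-only minus shared difference was −18.9 points (−21.1 to −16.6), and it was negative on all 19 autosomes. Element B was found at 279 KO-only summits, 20.01% (18 to 22.2%), against 6.41% of shared and 4.61% of WT-only summits. It was higher than in the shared class by 13.6 points (11.4 to 15.9) and than in the WT-only class by 15.4 points (13.0 to 17.8), again on all 19 autosomes. The elements were defined on these same windows, with reference copies taken from KO-only summits, so the counts describe the windows.

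Whether element B marks the strong KO-only summits in particular was examined by asking which summits of any strength lay inside a match of at least 150 bp and 80% identity. This looser count gave 22.6% of KO-only summits (20.5 to 24.9%). It gave 18.7% of all distal KO summits, and 20.3% of the 79468 of any strength that had no WT summit within 1 kb. The KO-only share was therefore near the level of the whole KO list, though its interval lay above both of these values. Strong shared summits lay inside B in 7.94% of cases. In the WT list, 10.4% of all distal summits and 8.23% of those with no KO summit within 1 kb lay inside B. More of the KO list than of the WT list was thus in element B at every strength among summits without a partner. For element A the same count gave 13.3% of KO-only summits against 5.96% of all distal KO summits, and the share rose with strength in both genotypes. Below a strength of 2.5 it was 1.01% of KO and 0.661% of WT summits without a partner.

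**Figure D2:**
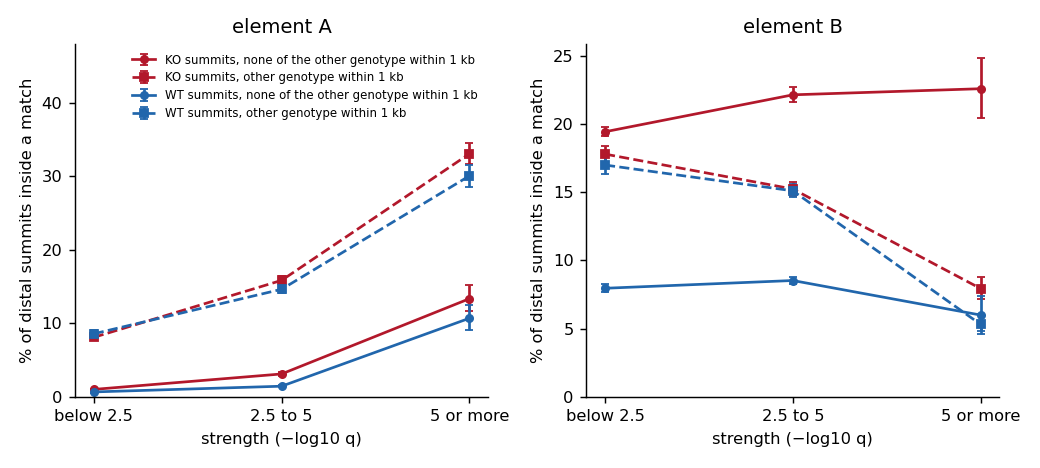
Share of distal H3K9me3 summits (y axis, percent, with Wilson 95% intervals) inside a genome match to element A (left) or B (right) by strength (x axis, −log10 q), for KO and WT summits with or without a summit of the other genotype within 1 kb. In the left panel every line rises with strength, and in the right panel the line of unpartnered KO summits lies between 19.4% and 22.6% and that of unpartnered WT summits between 6.00% and 8.53%.

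KO-only summits were spread along the whole of element A. Of the 179, 39 (21.8%) lay within the first 1000 bases of the reference copy and 37 (20.7%) between bases 4001 and 5000, and the other full stretches of 1000 bases held 17 to 24 each. Because the ends of A carry a direct repeat, a summit inside it cannot be placed securely at either end. Equal matches were counted at the lower position, which can raise the count of the first stretch. Along element B, the stretch from base 1001 to 2000 held most of them, 89 of 279 (31.9%). The classes were not compared for position, since the rule removes KO summits close to WT ones and so ties the position of each class to that of the WT summits.

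Next, the distance to the nearest WT H3K9me3 summit of any strength was used to ask how isolated the KO-only summits were. The median distance was 2062.5 bp, with quartiles of 1314 and 6406 bp. Of the 1394, 680 (48.8%) had a WT summit between 1 and 2 kb away, 974 (69.9%) within 5 kb and 1149 (82.4%) within 10 kb, which left 245 beyond 10 kb and 51 beyond 50 kb. Most KO-only summits thus had WT H3K9me3 in their neighbourhood, though not at the same position. The nearest WT summit was itself strong in 206 cases (14.8%) and stronger than the KO-only summit in 133. The elements differed in this respect. Summits in A had their nearest WT summit at a median of 1356 bp, 85.5% of them within 2 kb, and 6 of 179 beyond 10 kb. Summits in B had it at a median of 3801 bp, 31.5% within 2 kb, and 85 of 279 beyond 10 kb. Of the 51 summits beyond 50 kb, 21 (41.2%) were in B and 4 in A.

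**Figure D3:**
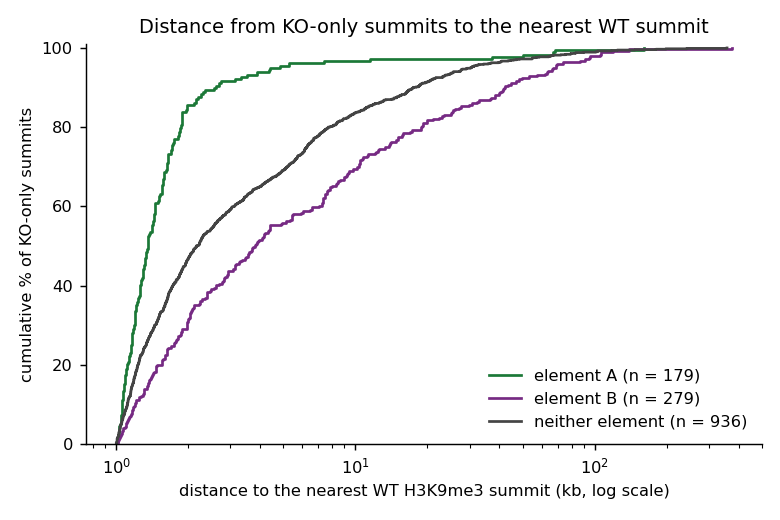
Cumulative share of KO-only summits (y axis, percent) by the distance to the nearest WT H3K9me3 summit of any strength (x axis, kb, log scale), for summits matching element A, element B or neither. The curve of A climbs first (median 1356 bp), that of B last (median 3801 bp), and all start at 1 kb because the rule excludes closer summits.

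The summits farthest from WT H3K9me3 were chr12:67829997 (373721 bp, strength 5.30, inside element B), chr14:40547309 (357446 bp, strength 6.11), chr11:34539112 in an intron of Dock2 (242898 bp, strength 6.11), chr3:45579392 (198372 bp, strength 6.05) and chr1:49831351 (180152 bp, strength 5.30). All but the summit in Dock2 were masked and intergenic. Their strengths were close to the threshold, as were those of most members.

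Around the KO-only summits both lists were dense. Between 1 and 2 kb away there were 34.1 WT and 31.3 KO summits per kb per 100 regions, and between 19 and 20 kb 9.94 and 10.8. From 2 to 10 kb the KO list was the denser one in each stretch of 1 kb, with 28.7 against 22.6 summits between 2 and 3 kb. A KO-only summit had a median of 4 KO and 3 WT summits within 10 kb, itself included, and 992 (71.2%) had more KO than WT summits. The rule sets part of this excess, because it places a KO summit at the centre and bars WT summits within 1 kb. Around WT-only summits the order was the reverse, with medians of 5 WT and 2 KO summits within 10 kb. Between 2 and 3 kb these had 28.3 WT and 20.2 KO summits per kb per 100 regions. Of the KO-only summits, 71 (5.09%) had neither a WT nor another KO summit within 10 kb. Merging KO-only summits within 10 kb of each other left 1297 groups, of which 1213 held a single summit, so the class was made of scattered positions and not of long runs.

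**Figure D4:**
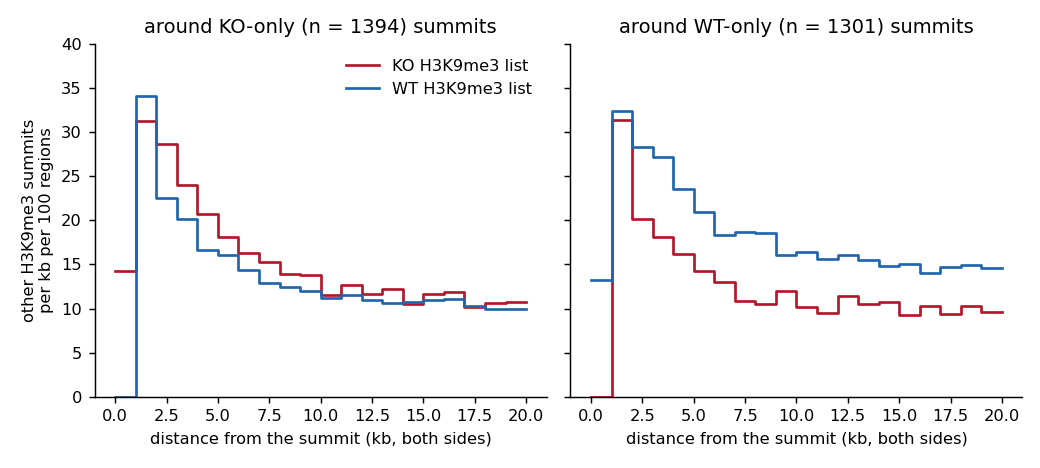
Density of other H3K9me3 summits (y axis, summits per kb per 100 regions) by distance from the summit on both sides (x axis, kb) around KO-only (left) and WT-only (right) summits, for the KO and WT lists. The first kb of the opposite list is 0 by the rule. Around KO-only summits the KO list lies above the WT list from 2 to 10 kb (28.7 against 22.6 between 2 and 3 kb). Around WT-only summits the WT list lies above the KO list there (28.3 against 20.2 between 2 and 3 kb).

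Strength was low and heavily tied. The median was 5.30 and the upper quartile 6.11, and 500 KO-only summits shared the value 5.29841 and 189 the value 6.10611. Of the KO-only summits 146 (10.5%) reached 7 and 27 (1.94%) reached 10, against 21.9% and 4.88% of the shared ones. Just inside the limit stood 2 summits at 5.00337 (chr17:13587456 and chr8:20602456), 2 at 5.00781 and chr5:102699969 at 5.00831, and 5 summits left out just under it had 4.97008. At the limit of distance, chr11:72278351 lay 1001 bp from a WT summit and entered, with a strength of 7.82. By contrast, chr11:85285009 lay 1000 bp from one and was left out, with a strength of 8.54.

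Of the 10 strongest KO-only summits, 8 had an unmasked summit base and none matched element A or B. Among the 10, chr18:3005842, chr18:3005013, chr13:3373158 and chr16:3350300 lay in the first 1 Mb of their chromosome's sequence (to 4 Mb). On all autosomes together, these first stretches held 21 of the 1394 KO-only summits and 76 of the 4320 shared ones. The highest of the 10, chr18:3005842, had a strength of 46.6, with a WT H3K9me3 summit of strength 5.87 at 2891 bp. It lay 12 bp from a WT Ctcf summit of strength 59.7 and 27 bp from a Rad21 summit of strength 30.6, and 893 bp from a KO H3K27me3 summit. A further member of the 10, chr18:3005013 (15.4), stood under 1 kb from it, so the pair is one place, and the most repeated stretch of its window had 864421 genome copies. After chr15:75086789, shown above, came chr13:3373158 (23.8), chr10:22142638 in an intron of E030030I06Rik (22.0), whose nearest Ctcf summit of strength 36.9 lay 1541 bp away, and chr18:40308196 in an intron of Kctd16 (20.5). The last had its nearest WT H3K9me3 summit at 57004 bp and no other KO summit within 10 kb. It was unmasked with a median of 1 genome copy, and it was stronger than the summit in Hydin shown above. Summits in an exon of Zfp180 (chr7:24105364, 19.04) and of Zfp316 (chr5:143252121, 16.3) had WT H3K9me3 summits at 1065 and 1705 bp with 11 and 10 WT summits within 10 kb, so both sat inside a zinc finger gene already marked in WT cells. The others were chr16:86820969 in the lincRNA Gm32624 (16.3) and the intergenic chr16:3350300 (15.4), whose most repeated stretch had 222856 copies.

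As for gene context, 911 KO-only summits (65.4%, Wilson 62.8 to 67.8%) were intergenic, 442 (31.7%) intronic and 41 (2.94%) exonic by GENCODE vM21. All distal KO summits were intergenic in 61.1%, intronic in 36.5% and exonic in 2.48% of cases. The intergenic share did not differ detectably from that of shared summits (0.189 points higher, interval −2.71 to 3.03). It was 14.1 points above the WT-only share of 51.3% (10.4 to 17.7), on 15 of 19 autosomes, in a WT list whose distal summits were intergenic in 52.3% of cases. The nearest protein-coding start was a median of 48006 bp away. KO-only summits lay within 358 protein-coding genes, 325 of which held 1. These genes had a median length of 119 kb against 17.6 kb for all autosomal protein-coding genes, and a longer gene offers more room for a summit.

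The genes with most KO-only summits were in a cluster of zinc finger genes on chromosome 4. The lincRNA Gm26573 held 21, the lincRNAs C230088H06Rik and Gm26624, which overlap each other, 16 and 9, Gm13165 and Gm26763 5 each, and Zfp600 4. Gm13165 and Zfp600 overlap each other and lie inside Gm26573, so their summits are among its 21. The protein-coding model Gm20388 held 6 over 4435 kb, together with 7 WT-only summits. Gm37013, Gm37388 and Gm42416 each contained the same 5 summits in the protocadherin array of chromosome 18. Zfp600 held 4 KO-only, 3 shared and 0 WT-only summits, 23 KO and 9 WT H3K9me3 summits of any strength, and no Arid1a, Brg1, Ctcf or Rad21 summit. Gm26573 held 254 KO and 135 WT summits of any strength. It also spans several Zfp genes.

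The stretch from 145 to 148 Mb of chromosome 4, chosen after these counts were seen, holds 18 protein-coding Zfp genes. It contained 54 of the 115 KO-only summits of the chromosome, 106 shared and 8 WT-only summits. Its H3K9me3 density was 296 KO and 169 WT summits per Mb, against autosomal means of 53.4 and 57.5. H3K27me3 was sparse there in both genotypes, with 6.00 KO and 6.67 WT summits per Mb against 34.8 and 44.2. Thus the KO list was ahead of the WT list in an array that both lists marked densely. Of the 54 summits 20 were masked and 3 single copy, and the median copy number of their windows was 4, so the assignment of a summit to 1 gene is uncertain. Where in the genome the other copies lie was not tested.

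Zfp genes encode zinc finger proteins, many of which direct H3K9me3 to transposable elements. Of 388 autosomal protein-coding Zfp genes, 100 had a KO-only summit within 50 kb and 41 within the gene. Of all 20807 autosomal protein-coding genes, 1480 (7.11%) had one within 50 kb. In all 109 KO-only summits, 7.82% (6.52 to 9.35%), lay within 50 kb of a Zfp gene, while 3.14% of all distal KO summits did. The share was 7.43% of shared and 4.07% of WT-only summits. It was thus similar in strong KO summits with and without a WT summit near, and it was not counted for all distal WT summits. The stretch of chromosome 4 described above held 54 KO-only and 106 shared summits beside 18 of the Zfp genes. How far the Zfp shares rest on that array was not tested. The olfactory receptor genes (Olfr) had 27 KO-only summits within 50 kb, 1.94%, against 1.45% of all distal KO summits. The vomeronasal receptor genes (Vmn) had 15, 1.08% against 0.924%. The cytochrome P450 genes (Cyp), which include the drug-metabolizing enzymes of hepatocytes, had 10, 0.717% against 0.542%. The intervals of these 3 shares include the value of the whole list. Cyp3a41a held a KO-only summit in its body, and Cyp2c50 had one at 1329 bp and Cyp2c67 one at 2309 bp. The protocadherin (Pcdh) genes had 5, 0.359% (0.153 to 0.837%) against 0.222%, the serpins 4, 0.287% (0.112 to 0.735%) against 0.143%, and the Ugt genes 1, 0.0717% (0.0127 to 0.405%) against 0.0581%. No KO-only summit lay within 50 kb of a Hox gene, which by a floor of 3 counts allows a share of up to 0.215%, and 0.0337% of all distal KO summits lay there.

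Of the 10 genes that the study singled out, only Rnf125, a ubiquitin ligase gene, had a KO-only summit within 50 kb. It lay inside the gene (chr18:20953600) with a strength of 5.30. Among 25 genes of the H3K9 methylation machinery, 1 had a KO-only summit within 50 kb. This was Pphln1, which encodes a subunit of the HUSH silencing complex, with a summit of strength 5.12 at 19200 bp. None of the 13 hepatocyte, 4 endothelial, 4 immune and 4 stellate or fibroblast marker genes had one. With a background of 7.11% of genes, lists this short cannot show a lack of KO-only summits.

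To ask which factors were listed at these places in WT cells, their summits within 1 kb were counted. A WT Arid1a summit was near 93 KO-only summits, 6.67% (5.48 to 8.10%), where the share over all distal KO summits was 6.46%. Brg1 was near 85, 6.10% (4.96 to 7.48%), against 6.75%. Ctcf was near 68, 4.88% (3.87 to 6.14%), against 5.26%, and Rad21 near 89, 6.38% (5.22 to 7.79%), against 6.28%. At least 1 of the 4 was near 262, 18.8% (16.8 to 20.9%), against 19%. The KO-only summits thus had WT factor summits about as often as the KO list as a whole. The 79468 KO summits of any strength without a WT summit within 1 kb had lower shares. These were 5.40% for Arid1a, 5.74% for Brg1, 4.69% for Ctcf, 5.02% for Rad21 and 16.2% for any factor. For Brg1 and Ctcf the KO-only intervals include these values, and for Arid1a, Rad21 and any factor they lie above them.

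Shared summits had any of the 4 factors nearby in 22.5% of cases, and the KO-only minus shared difference was −3.68 points (−6.02 to −1.22, negative on 15 of 19 autosomes). The interval included 0 when only factor summits of at least 5 were counted (−0.325 points, −1.14 to 0.673) and for KO-only and shared summits of at least 7 (−1.50 points, −8.42 to 6.54). Among the single factors, Rad21 had a difference of −2.57 points (−4.04 to −0.947, negative on 17 autosomes), while the intervals for Arid1a (−2.61 to 0.471), Brg1 (−2.64 to 0.326) and Ctcf (−0.988 to 1.62) included 0. Against WT-only summits the difference was large. These had Arid1a nearby in 16.6%, Brg1 in 17.8%, Ctcf in 14.1%, Rad21 in 22.0% and any of the 4 in 43.0% of cases, and the KO-only minus WT-only difference for any factor was −24.2 points (−27.5 to −20.8), negative on all 19 autosomes. Of all distal WT summits 31.6% had a factor nearby and of all distal KO summits 19%, so the whole lists differed in the same direction. The factor libraries came from WT cells, as did the WT H3K9me3 library, and how far that bears on the contrast was not tested.

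**Figure D5:**
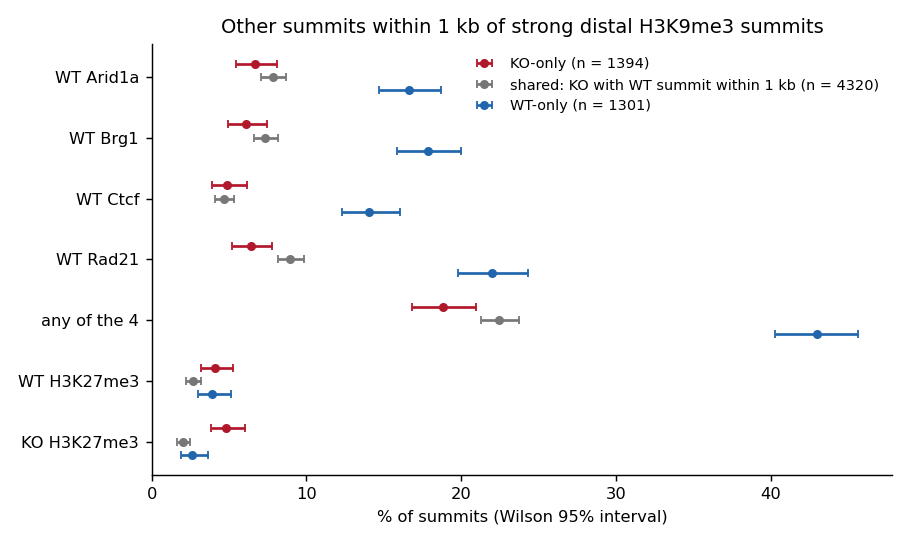
Share of summits (x axis, percent, with Wilson 95% intervals) that have a summit of another list (y axis) within 1 kb, for KO-only, shared and WT-only strong distal H3K9me3 summits. For each of the 4 factors the WT-only summits stand apart at 14.1% to 22.0%, and KO-only summits stand above both other classes for KO H3K27me3 (4.81% against 2.01% and 2.61%). Among all KO summits of any strength without a WT summit within 1 kb, which are not drawn, that share was 5.45%.

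The strength of the nearest factor summits was taken where they lay within 1 kb of a KO-only summit. Their medians were 2.56 for Arid1a, 2.56 for Brg1, 3.35 for Ctcf and 2.72 for Rad21. The whole factor lists had medians of 2.70, 2.56, 4.02 and 3.34. An Arid1a summit of at least 5 was near 2 KO-only summits (0.143%, against 0.0841% of all distal KO summits) and a Brg1 summit of at least 5 near 2 (0.143% against 0.155%). A Ctcf summit of at least 5 was near 23 (1.65% against 1.85%) and a Rad21 summit near 14 (1.0% against 1%). Strong factor summits were thus rare beside the whole KO list too. Ctcf and Rad21 lay together within 1 kb of 25 KO-only summits (1.79% against 2.17%), and Arid1a and Brg1 together within 1 kb of 14 (1.0% against 1.37%). At least 3 of the factors were near 5 KO-only summits, 0.359% (0.153 to 0.837%), against 0.913%. All 4 were near 0 of 1394, which by a floor of 3 counts allows a share of up to 0.215%. They were near 0.138% of all distal KO summits, 5 of the 4320 shared summits (0.116%) and 25 of the 1301 WT-only summits (1.92%), and the interval of the KO-only minus shared difference included 0 (−0.271 to 0.167 points). Factor summits were also scarcer the farther a KO-only summit lay from WT H3K9me3. Any factor was near 21.9% of those with a WT H3K9me3 summit within 2 kb, 7.73% of those 10 to 50 kb away and 7.84% of the 51 beyond 50 kb. Inside the elements, 24 of the 179 summits in A (13.4%) and 33 of the 279 in B (11.8%) had a factor nearby, against 205 of the 936 outside them (21.9%).

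H3K27me3, the Polycomb mark of facultative heterochromatin, was near few KO-only summits in either genotype. A KO H3K27me3 summit lay within 1 kb of 67, 4.81% (3.80 to 6.06%), against 4.51% of all distal KO summits, and a WT H3K27me3 summit within 1 kb of 57, 4.09% (3.17 to 5.26%), against 5.88%. Shared summits had lower shares of 2.01% in the KO list and 2.66% in the WT list. The KO-only share was higher by 2.79 points (1.69 to 4.10, on 13 of 19 autosomes) and 1.43 points (0.369 to 2.68, on 12 autosomes). The same order held at any strength. The 79468 KO summits without a WT summit within 1 kb had shares of 5.45% in the KO list and 6.63% in the WT list. KO summits of any strength with one had 2.62% and 4.38%. For KO H3K27me3 the KO-only interval includes the 5.45%, and for WT H3K27me3 it lies below the 6.63%. The KO H3K27me3 share was 1.03% for KO-only summits with a WT H3K9me3 summit within 2 kb and between 8.50% and 9.28% for those from 2 to 50 kb, and it was 3.92% for the 51 beyond 50 kb. The immediate neighbours of WT H3K9me3 were thus the summits with least H3K27me3 beside them.

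KO-only summits were found on every autosome, from 31 on chromosome 13 to 157 on chromosome 10. Their share of the strong distal KO summits ran from 19.1% on chromosome 11 (14.9 to 24.1%) to 30.6% on chromosome 14 (24.0 to 38.2%). Their density ran from 0.257 per Mb on chromosome 13 to 1.20 per Mb on chromosome 10, which also held most shared and WT-only summits. The share of KO-only summits in element B was between 12.2% on chromosome 4 and 30.5% on chromosome 18.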

How the data were processed

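Peak lists were analysed for 8 samples of AB17 cells, with 1 library per group. Grouping followed the sample titles. As the study's methods describe, the authors used bowtie2 for alignment to mm10, filtered reads of low quality (SAMtools) and PCR duplicates (Picard), and ran MACS2 with its defaults against input. Versions and any pooling were not given in the sources used here. Each deposited list gave 1-bp summits with a −log10 q-value, which the authors' MACS2 run assigned within its own library. The 2 inputs have no list here.

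Members and gene lists were chosen with earlier results of these data known. Summits were placed on GENCODE vM21 genes and RefSeq GRCm38, whose soft-masked bases served as repeat annotation. Windows of 300 bp were compared with blastn 2.17.0+, in families of at least 80% identity over 150 bp. Python 3.11.15, numpy 2.4.6, pandas 2.3.3 and scipy 1.17.1 were used. The counting was tested on simulated lists. No p-value was computed. The genes named were the 10 with most members, study and H3K9 machinery genes within 50 kb, and examples from gene name groups. Summits named were the 10 strongest and those next to each limit. Those farthest from WT H3K9me3, the sequences and the elements were chosen after their values were seen. Alternatives changed the strength limit, windows, start distance and merging.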

Additional observations from a re-analysis of the deposited data

How the results depend on the processing

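No paired analysis was possible because each group held 1 library and no test was made. The number of KO-only summits followed the limits, with 3601 at a strength of at least 4, 146 at 7 and 27 at 10, and with 420 under a WT window of 5 kb and 2570 under one of 500 bp. The masked share was 63.5% at a strength of at least 4, 48.1% at 10 and 71.8% with starts at least 5 kb away. At a strength of 10 the intergenic share was 59.3%. The share with any factor was 24.7% at 7, 22.2% at 10, 12.1% under the WT window of 5 kb, 11.5% within 500 bp of a factor, 55.0% within 5 kb and 2.15% for factor summits of at least 5. The share with KO H3K27me3 was 7.53% at 7, 7.41% at 10, 8.33% and 3.39% under WT windows of 5 kb and 500 bp, and 12.2% within 5 kb of H3K27me3. Direction changed at a strength of at least 10, with 27 KO-only summits left, where they were masked less often than WT-only ones (−15.5 points) and had less KO H3K27me3 nearby than shared ones (−0.176 points). The cause was not tested. The sign of the factor difference was the same in all 11 alternatives against both other classes, and that of the intergenic difference from WT-only in all 8, but intervals included 0. This was so for factors against shared summits at a strength of 7, at 10 (−25.3 to 7.60) and for factor summits of at least 5, and at 10 also for factors (−39.6 to 1.97) and intergenic share (−14.1 to 30.8) against WT-only summits. The masked difference from shared summits was −9.51 points at 7, −21.5 at 10 and −1.08 under the WT window of 5 kb. Depth is unknown and 1 library per group limits every genotype contrast.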
